A study of Homo sapiens with 12 samples.

Results

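MDA-MB-231 cells given glucose without glutamine were compared with MDA-MB-231 cells given glutamine without glucose. MDA-MB-231 is an established human breast adenocarcinoma line with mesenchymal features, and no group carried a genetic change. The comparison used 6 of the study's 12 total RNA libraries. The 3 glucose-only libraries came from medium with 25 mM glucose and no glutamine, and the 3 glutamine-only libraries from medium with 4 mM glutamine and no glucose. The other 6 libraries, 3 from a deficient medium that lacked both nutrients and 3 from a full medium that held 25 mM glucose and 4 mM glutamine, contributed to the estimate of the spread and served to place the levels. Every medium contained 3% fetal bovine serum and was left on the cells for 36 h, after growth in 10% serum, so that serum was present in all groups. A gene was taken where 3 or more of the 12 libraries had a normalized count (reads divided by the library's size factor) of 10 or higher, which left 9270 of the 63187 genes in the table. The labels do not say whether replicates A, B and C were separate cultures, so p-values measure the spread between these libraries, which may be technical, and all results describe 1 cell line.

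Glucose and glutamine are the main carbon sources of cultured tumour cells, and glutamine is also the main nitrogen donor for nucleotides, amino sugars and other amino acids. Glucose 6-phosphate activates the transcription factors MondoA and ChREBP, which with their partner MLX bind a pair of E-boxes called the carbohydrate response element. Sugars made from glucose are also attached to proteins in the endoplasmic reticulum (ER). When folding fails there, the sensors ATF6, IRE1 and PERK raise ER chaperones, in part through the ER stress response element. SREBP transcription factors raise the enzymes of cholesterol and fatty acid synthesis when ER cholesterol is low, HIF1A raises glycolytic and hypoxia genes, and ATF4 raises amino acid genes when amino acids are short or when other stress kinases are active.

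The promoter windows below belong to genes on which the main results turn, and each holds a match to 1 of 3 response elements, printed in capitals. Windows run 5′ to 3′ from 250 bases before to 50 bases after the gene's start and come from RefSeq on build GRCh38.p14. The carbohydrate response element was searched as CACGNG, 5 bases of any kind and CACGNG, the ER stress response element as CCAAT, 9 bases of any kind and CCACG, and the sterol response element as TCACNCCAC, on both strands, so capitals can show the reverse complement. The letters CACGNG cover the E-box CACGTG, which alone occurred in 7.435% of all promoters, and a match describes letters only, not a bound site. TXNIP lies on the minus strand, and the first of its 2 windows in the table is shown, at chr1:145996530-145996829. HSPA5 (minus strand, chr9:125241294-125241593), HSP90B1 (plus strand, chr12:103930160-103930459), CALR (plus strand, chr19:12938359-12938658) and CRELD2 (plus strand, chr22:49918384-49918683) carry the ER stress element, and SREBF2 (plus strand, chr22:41832855-41833154) the sterol element.
TXNIP: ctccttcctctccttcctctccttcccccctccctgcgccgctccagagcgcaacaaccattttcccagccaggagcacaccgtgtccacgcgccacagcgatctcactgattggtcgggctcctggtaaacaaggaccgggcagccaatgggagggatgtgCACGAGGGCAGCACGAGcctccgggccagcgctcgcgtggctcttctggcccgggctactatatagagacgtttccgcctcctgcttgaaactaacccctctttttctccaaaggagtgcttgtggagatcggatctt
HSPA5: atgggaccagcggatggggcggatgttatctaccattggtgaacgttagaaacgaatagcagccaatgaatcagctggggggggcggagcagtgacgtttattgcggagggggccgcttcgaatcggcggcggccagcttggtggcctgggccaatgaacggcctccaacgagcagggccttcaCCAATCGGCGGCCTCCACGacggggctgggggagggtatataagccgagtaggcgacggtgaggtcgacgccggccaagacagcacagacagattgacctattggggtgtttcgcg
HSP90B1: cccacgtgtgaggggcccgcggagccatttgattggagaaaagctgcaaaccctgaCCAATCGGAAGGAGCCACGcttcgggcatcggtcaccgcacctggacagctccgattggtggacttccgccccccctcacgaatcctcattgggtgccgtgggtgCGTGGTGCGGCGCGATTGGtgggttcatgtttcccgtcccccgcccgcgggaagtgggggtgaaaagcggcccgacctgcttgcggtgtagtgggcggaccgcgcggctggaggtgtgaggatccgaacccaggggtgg
CALR: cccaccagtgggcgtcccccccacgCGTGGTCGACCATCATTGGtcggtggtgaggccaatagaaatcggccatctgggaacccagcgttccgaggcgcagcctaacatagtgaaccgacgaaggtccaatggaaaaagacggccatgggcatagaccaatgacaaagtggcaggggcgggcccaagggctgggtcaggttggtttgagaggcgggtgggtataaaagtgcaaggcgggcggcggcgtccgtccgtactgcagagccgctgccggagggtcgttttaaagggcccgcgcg
CRELD2: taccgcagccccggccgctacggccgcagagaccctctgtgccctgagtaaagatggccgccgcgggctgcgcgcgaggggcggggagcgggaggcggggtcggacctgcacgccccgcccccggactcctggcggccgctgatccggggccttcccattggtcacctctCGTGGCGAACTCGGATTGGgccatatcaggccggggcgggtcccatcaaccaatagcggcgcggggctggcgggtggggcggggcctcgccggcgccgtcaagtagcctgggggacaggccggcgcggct
SREBF2: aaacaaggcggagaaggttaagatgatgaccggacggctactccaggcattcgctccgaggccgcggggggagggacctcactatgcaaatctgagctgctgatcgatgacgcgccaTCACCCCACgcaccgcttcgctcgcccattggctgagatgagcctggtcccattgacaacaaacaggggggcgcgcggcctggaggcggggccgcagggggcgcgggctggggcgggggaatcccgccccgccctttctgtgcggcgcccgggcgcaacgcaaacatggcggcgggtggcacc

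The glucose-only libraries held 875033 to 994376 reads assigned to genes and the glutamine-only libraries 1020451 to 1186169, within a range of 875033 to 1473587 over all 12, so genes with low counts were measured with little precision. The first principal component of the 6 libraries carried 46.4% of the variance and separated the media. Of 10 marker genes of the mesenchymal line, 9 reached 10 normalized counts in at least 1 library, with VIM the highest, and their sums were 2970.1 to 3015 in glucose-only and 3080 to 3098 in glutamine-only libraries. No library reached 10 for any of 9 fibroblast, 7 adipocyte or 11 blood cell markers. Of 7 endothelial markers 4 also stayed under 10, the highest being ESAM at up to 85.3 with marker sums of 78.8 to 93.3 in glucose-only and 79.4 to 88.5 in glutamine-only libraries. Of 12 luminal epithelial markers 7 stayed under 10, including ESR1, PGR, FOXA1 and CDH1. The others were KRT18, the highest at up to 396, KRT8, KRT19, CLDN4 and EPCAM. Luminal marker sums were 494 to 531 in glucose-only and 519 to 548 in glutamine-only libraries. In bulk RNA, fewer cells of a type and less RNA per cell cannot be told apart.

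Between the media, 1234 of the 9270 genes (13.3%) differed at an adjusted p under 0.05 by limma on log2(normalized count + 1), fitted over all 12 libraries with Benjamini-Hochberg adjustment. Of these, 468 (5.05% of genes tested) were higher and 766 (8.26%) lower in glucose-only cells. With libraries scaled to equal totals the split was 245 higher and 907 lower. All differences below are log2 glucose-only minus glutamine-only. The median over all genes tested was -0.00. A difference of at least 2-fold in called genes was seen for 347 genes (3.74%), of which 98 (1.06%) were higher and 249 (2.69%) lower in glucose-only cells. Values of the 2 media did not overlap for 2759 genes (29.8%). Of the 1131 genes with a mean of at least 100 over the 6 libraries, 408 (36.1%) were called, so that a share of called genes depends on the level of the genes counted. The 33 gene lists described below held 771 tested genes, of which 303 were called, and 931 called genes were in none of them. Every list count below is to be read beside the 5.05% higher and 8.26% lower of all genes tested. The number of higher genes was 306 without glucose-only replicate A, 283 without glucose-only replicate C and 283 without glutamine-only replicate C.

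Sterol and fatty acid synthesis genes gave some of the lowest values in glucose-only cells. Of 25 tested genes of cholesterol synthesis and uptake, 17 fell, against 8.26% of all genes tested, and the other 8 were not called, with a median of -1.36. INSIG1 (ENSG00000186480, chr7:155297878-155310235, GRCh38.p14), which retains the SREBP escort SCAP in the ER and is itself an SREBP target, had 13.2, 24.1 and 19.99 in the glucose-only libraries, against 277, 269.7 and 293 in the glutamine-only libraries. Every glucose-only value was far below every glutamine-only value, and the difference was -3.84 ± 0.16 (SE), adjusted p = 4.21e-17. INSIG1 stood at 51.5 ± 10.3 in deficient medium and 227 ± 13.3 in full medium (SD, n = 3 each), so that its levels without glutamine were low with and without glucose. HMGCS1, which makes HMG-CoA for the pathway, had 12.04, 10.5 and 12.9 in the glucose-only libraries, against 66.8, 58.7 and 45.7 in the glutamine-only libraries, a difference of -2.17 ± 0.19 (SE), adjusted p = 1.41e-09. SQLE, the epoxidase that commits squalene to sterols, fell (-2.01), as did DHCR7 (-3.07), a late reductase of the pathway. The gene of the transcription factor SREBP2 itself, SREBF2, fell by 1.34 on the log2 scale (adjusted p = 3.87e-07), averaging 42.0 ± 6.30 in glucose-only cells and 107 ± 3.95 in glutamine-only cells (SD, n = 3 each), and SREBF1 also fell (-1.21). FDPS (-0.40) and SCAP (0.33) were not called.

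Of 20 tested fatty acid and triglyceride synthesis genes, 12 fell and 1 rose, against 8.26% and 5.05% of all genes tested. The list median was -0.74. SCD (ENSG00000099194, chr10:100347233-100364826), the desaturase that makes monounsaturated fatty acids, had 122, 116 and 152 in the glucose-only libraries, against 948, 1032 and 991 in the glutamine-only libraries. The 2 sets of values lay far apart, with a difference of -2.93 ± 0.10 (SE), adjusted p = 1.07e-18. SCD stood at 123 ± 4.12 in deficient medium and 674 ± 28.5 in full medium (SD, n = 3 each). FASN, the fatty acid synthase, differed by -1.82, and FADS2 and FADS1, desaturases of polyunsaturated fatty acids, by -2.26 and -1.47. All 3 fell. FADS1 and FADS2 overlap by 490 bases on opposite strands, so reads there are assigned with certainty only if strand was used in counting, which is not given in the sources used here. GPAM, which begins triglyceride synthesis by adding a fatty acid to glycerol 3-phosphate, rose (1.08 ± 0.34 (SE), adjusted p = 0.0304), a call that was lost without glucose-only replicate A or B or any 1 of the glutamine-only libraries. In fatty acid oxidation 1 of 17 tested genes was called, CPT1A, which admits fatty acids to mitochondria and rose by 0.84 with 32.5, 28.3 and 37.6 in the glucose-only libraries, against 16.2, 23.1 and 14.9 in the glutamine-only libraries and was not called by DESeq2. The sterol response element was found in 313 of 27305 promoters (1.15%) and in 85 promoters of tested genes, of which 4 rose and 9 fell. These counts lie near the 5.05% higher and 8.26% lower of all genes tested. Among 19 cholesterol list members with a window it was found in SREBF2 alone.

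**Figure D1:**
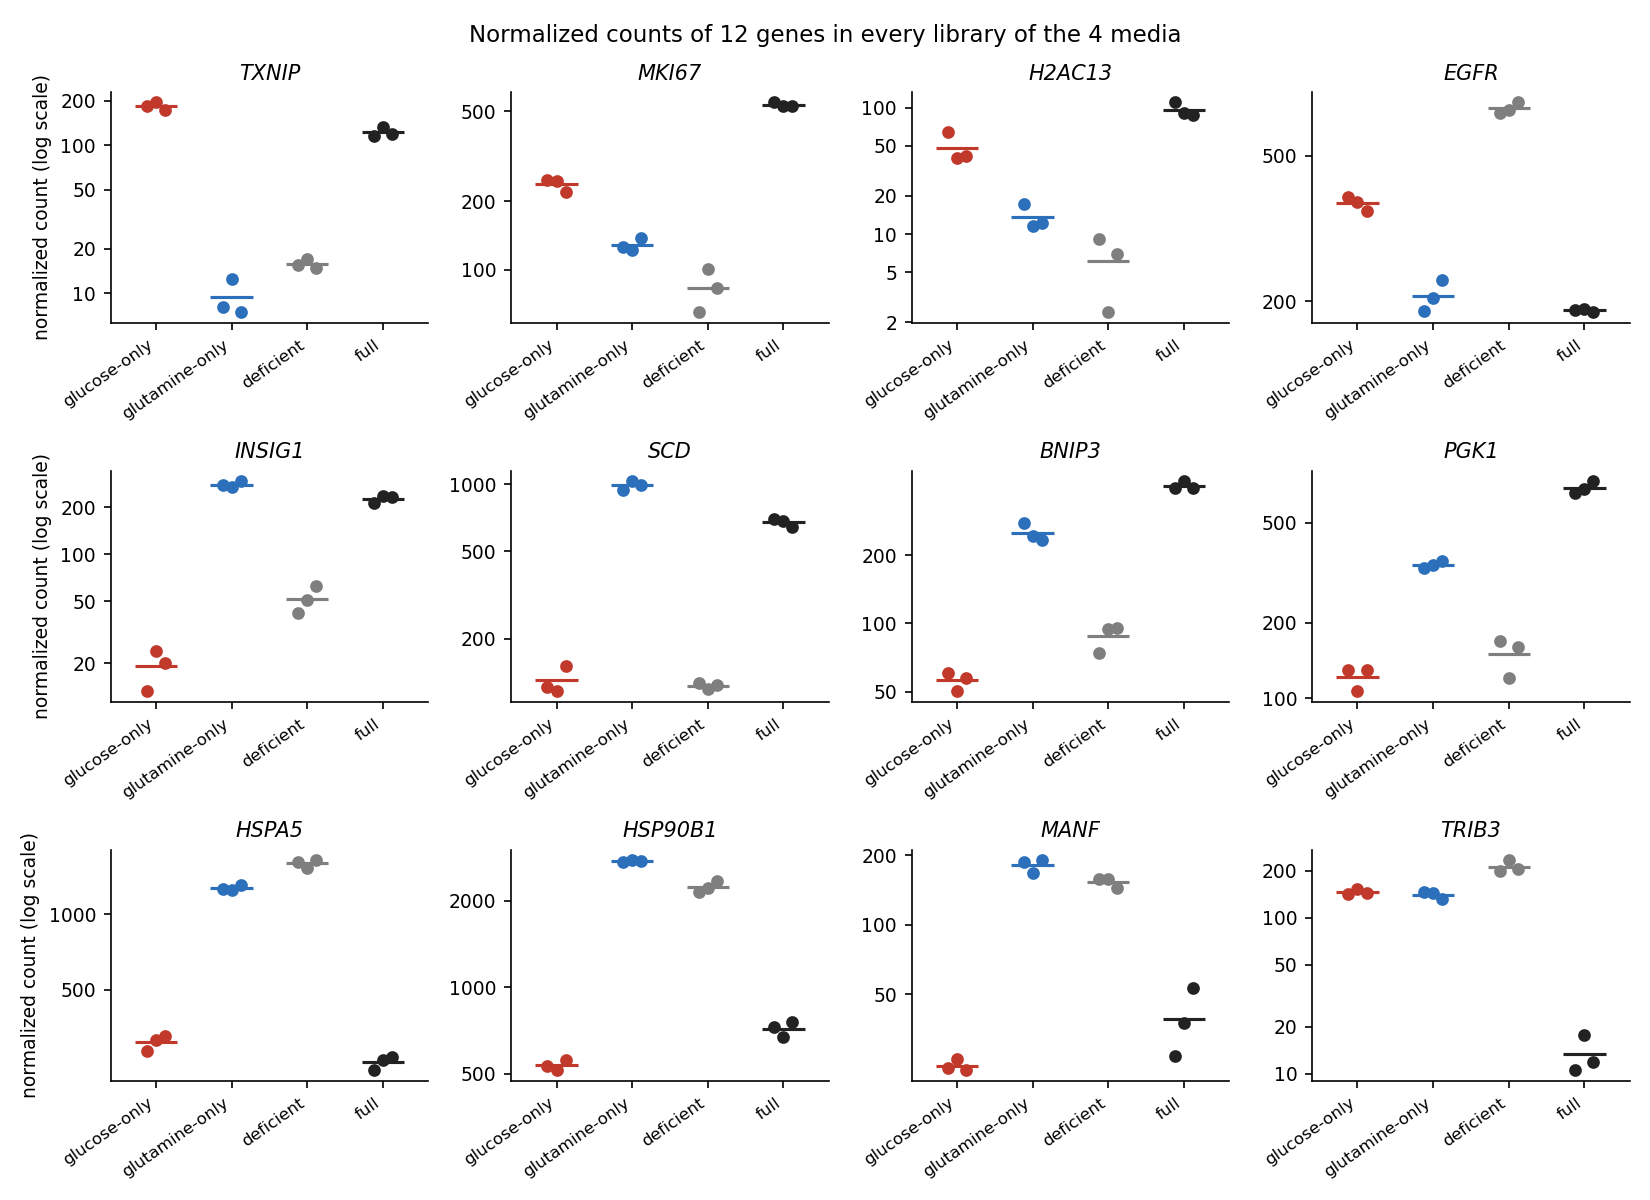
Normalized counts of 12 genes in each library, on a log axis, with media from left to right glucose-only, glutamine-only, deficient and full. Each point is 1 library (n = 3 each medium). TXNIP lies at 174 to 195 in glucose-only and at 7.46 to 12.5 in glutamine-only libraries, and SCD at 116 to 152 in glucose-only and 948 to 1032 in glutamine-only libraries.

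TXNIP (ENSG00000265972, chr1:145992435-145996579), an arrestin-like inhibitor of glucose uptake and of thioredoxin, was the gene with the highest positive difference of the 9270. It had 185, 195 and 174 in the glucose-only libraries, against 8.12, 12.5 and 7.46 in the glutamine-only libraries. The groups were far apart, with a difference of 4.19 ± 0.17 (SE), adjusted p = 4.21e-17. Its level was 15.8 ± 1.08 in deficient medium and 123 ± 9.24 in full medium (SD, n = 3 each). Of 9 tested MondoA and ChREBP targets, TXNIP and 1 other rose and 1 fell. KLF10, a TGF-beta-induced repressor, rose (0.63 ± 0.13 (SE), adjusted p = 0.00107), TKT, the transketolase of the pentose phosphate pathway, fell (-1.03 ± 0.10 (SE), adjusted p = 9.38e-09), and the other 6 were not called, with a list median of -0.06. The arrestin-like paralogue ARRDC3 had 55.4, 31.4 and 58.8 in the glucose-only libraries, against 44.2, 54.9 and 48.5 in the glutamine-only libraries, values that overlap, and MLXIP, which encodes MondoA, differed by 0.28 (95% interval -0.34 to 0.91). ARRDC4, the other well-known MondoA target, was not tested, with 3.61, 5.24 and 7.05 in glucose-only libraries and 0 in each of the 3 glutamine-only libraries. MLXIPL, which encodes ChREBP, was also not tested and lay the other way. It had 8.43, 4.19 and 7.05 in the glucose-only libraries, against 20.7, 8.67 and 19.6 in the glutamine-only libraries. The carbohydrate response element occurred in 20 of 27305 promoters (0.0733%). Of 12 tested genes that held it, 1 rose and 2 fell, beside 5.05% higher and 8.26% lower of all genes tested. With so few genes, nothing about the element is read from these counts. TXNIP rose, and its match begins 88 bases before the start. GFPT1, the first enzyme of amino sugar synthesis (-0.59), and P4HA1, a collagen prolyl hydroxylase (-2.12), fell.

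Most glycolysis genes were lower in the cells that had glucose and no glutamine than in those with glutamine and no glucose. Of 23 tested glucose transport and glycolysis genes, 17 fell, against 8.26% of all genes tested. The other 6 were not called, and the list median was -0.73. PGK1 (ENSG00000102144, chrX:78104248-78129295), the first glycolytic enzyme to yield ATP, had 130.1, 107 and 129 in the glucose-only libraries, against 330.1, 338 and 351 in the glutamine-only libraries. No value was shared between the groups, and the difference was -1.47 ± 0.11 (SE), adjusted p = 6.97e-11. PGK1 stood at 150 ± 25.7 in deficient medium and 688 ± 38.4 in full medium (SD, n = 3 each), so it was highest with both nutrients. The glucose transporters SLC2A1 and SLC2A3 differed by -1.11 and -1.28, and PFKFB4, which sets the level of the glycolytic activator fructose 2,6-bisphosphate, by -1.85. All 3 fell. GAPDH fell less, by 0.49 on the log2 scale (adjusted p = 4.39e-04), at 473 ± 15.1 in glucose-only cells and 665 ± 27.0 in glutamine-only cells (SD, n = 3 each). The lactate exporter SLC16A3 (-0.25 (95% interval -0.48 to -0.02)) was not called. LDHA, listed at 0 to 1.83, and SLC16A1, listed at 0, did not reach the minimum, and ALDOA averaged 4.83 ± 2.17 in glucose-only cells and 11.4 ± 1.96 in glutamine-only cells (SD, n = 3 each) and was not called. Cultured tumour cells widely use LDHA and ALDOA, so such values do not show that a gene was silent.

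Hypoxia targets of HIF1A moved in the same direction, with 17 of 21 tested lower, against 8.26% of all genes tested. The other 4 were not called, and the list median was -1.04. BNIP3 (ENSG00000176171, chr10:131967684-131981923), a mitochondrial outer membrane protein that promotes mitophagy, had 60.2, 50.3 and 57.6 in the glucose-only libraries, against 277, 243 and 234 in the glutamine-only libraries. The groups did not overlap, and the difference was -2.14 ± 0.12 (SE), adjusted p = 1.69e-14. BNIP3 stood at 88.0 ± 11.9 in deficient medium and 404 ± 16.1 in full medium (SD, n = 3 each), so it was also highest with both nutrients. NDRG1, a stress-induced growth regulator, had 59.0, 68.1 and 77.6 in the glucose-only libraries, against 328, 319 and 336 in the glutamine-only libraries, a difference of -2.26 ± 0.12 (SE), adjusted p = 1.16e-14. EGLN3, a prolyl hydroxylase that marks HIF proteins for degradation and is itself induced by them, differed by -2.71, and the peptide hormone ADM by -1.84. Both fell. VEGFA, the angiogenic factor, was not called, at 357 ± 30.6 in glucose-only cells and 374 ± 4.88 in glutamine-only cells (SD, n = 3 each) and a difference of -0.07 (95% interval -0.27 to 0.13). PDK1, PGK1 and SLC2A1 of the glycolysis list are also known targets of HIF1A.

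**Figure D2:**
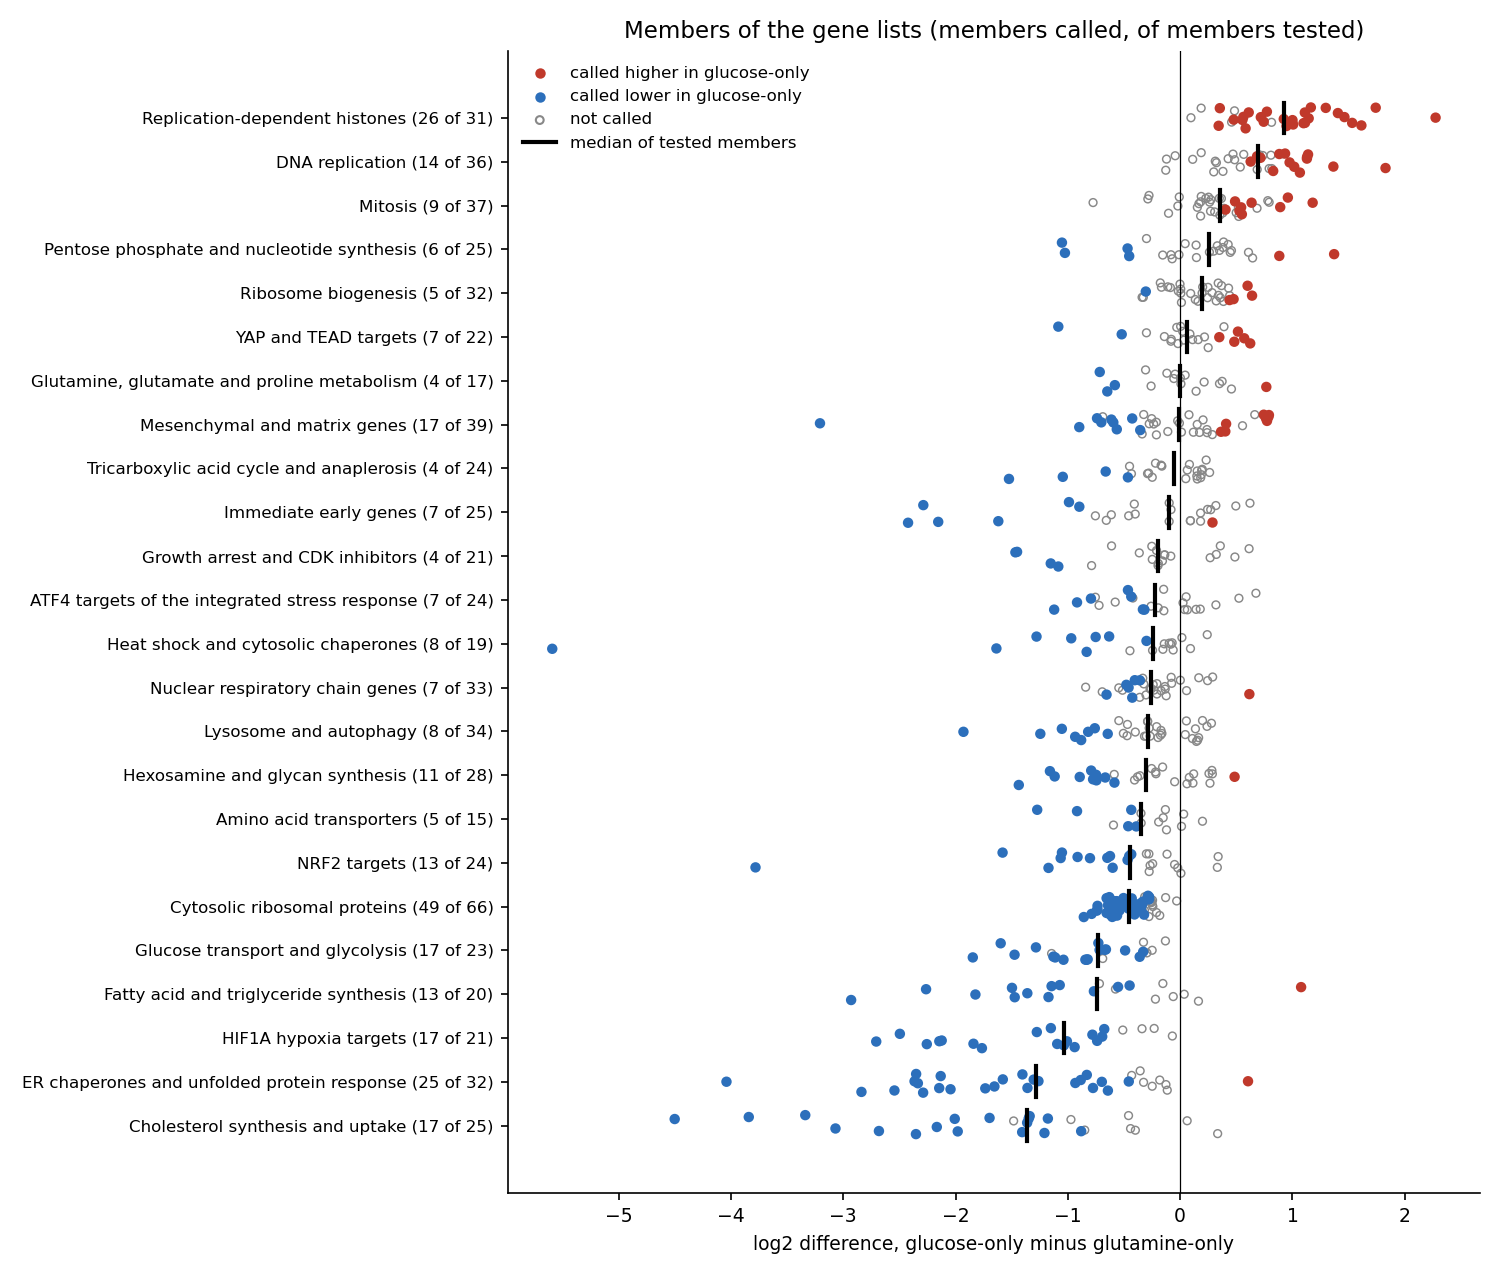
Log2 differences, glucose-only minus glutamine-only, of the tested members of each gene list with at least 4 called genes. Each dot is 1 gene, filled where the adjusted p was under 0.05, and a vertical line marks the median of the list. ER chaperone, sterol, glycolysis and HIF1A lists lie mostly left of 0 and replication-dependent histones right of it.

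ER chaperones were lower in glucose-only than in glutamine-only cells. Of 32 tested genes of ER folding and the unfolded protein response, 24 fell, against 8.26% of all genes tested. In the same list 1 rose and 7 were not called, with a median of -1.28. HSPA5 (ENSG00000044574, chr9:125234853-125241343), also called BiP, the main ER chaperone of the HSP70 family, had 285, 313 and 327 in the glucose-only libraries, against 1266, 1248 and 1309.5 in the glutamine-only libraries. HSP90B1 (ENSG00000166598, chr12:103930410-103947926), the ER member of the HSP90 family, had 532, 514 and 556 in the glucose-only libraries, against 2743, 2767 and 2757 in the glutamine-only libraries. In both genes each glucose-only value was below each glutamine-only value, with differences of -2.04 ± 0.09 (SE), adjusted p = 2.89e-16 for HSPA5 and -2.37 ± 0.10 (SE), adjusted p = 4.21e-17 for HSP90B1. Their levels were 1599 ± 60.4 in deficient medium and 256 ± 15.3 in full medium (SD, n = 3 each) for HSPA5, and 2233 ± 97.7 in deficient medium and 716 ± 42.9 in full medium (SD, n = 3 each) for HSP90B1. MANF, a secreted ER protein that binds HSPA5, had 24.1, 26.2 and 23.5 in the glucose-only libraries, against 188, 169 and 190.1 in the glutamine-only libraries, a difference of -2.84 ± 0.16 (SE), adjusted p = 6.62e-14. The disulfide isomerases PDIA3, PDIA4 and PDIA6 differed by -2.34, -2.29 and -2.13, the lectin chaperone CALR by -2.15, the calcium-binding protein gene NUCB2 by -2.19, and the nucleotide exchange factor HYOU1 by -2.35. SDF2L1, an ER protein that works with HSPA5, had 0, 4.19 and 2.35 in the glucose-only libraries, against 41.5, 41.4 and 41.9 in the glutamine-only libraries, a difference of -4.04 ± 0.41 (SE), adjusted p = 2.13e-08. Members of this list that act in ER-associated degradation and that fell include HERPUD1 (-1.58), SYVN1 (-1.36), EDEM1 (-1.30) and SEL1L (-1.26).

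The ER stress sensors and their factors did not all follow the chaperones. ERN1, which encodes the sensor IRE1, had 74.7, 111 and 99.9 in the glucose-only libraries, against 62.2, 63.6 and 58.7 in the glutamine-only libraries, a difference of 0.60 ± 0.16 (SE), adjusted p = 0.0101. It rose, but was not called without glucose-only replicate B or with equal totals. ATF6 (-0.18 (95% interval -0.46 to 0.10)), XBP1 (-0.25 (95% interval -0.50 to 0.00)) and CANX, a membrane-bound lectin chaperone (-0.43 (95% interval -1.01 to 0.14)), were not called. XBP1 is activated by splicing of its RNA, and gene counts do not separate the spliced form. The ER stress response element was found in 22 of 27305 promoters (0.0806%) and in 12 promoters of tested genes. Of these 12 genes 9 fell (ERO1B, SERP1, EIF2A, HSPA5, TRIM5, HSP90B1, FICD, CALR and CRELD2), beside 8.26% of all genes tested. CANX, XBP1 and TMEM120A were not called. SERP1 and EIF2A share 1 matched site between them, and HSP90B1 has 2 matches. Leaving out the named library ended the calls of SERP1 (glucose-only C, glutamine-only C), EIF2A (glucose-only A or B, glutamine-only B or C) and TRIM5 (glucose-only A). Of the 29 ER list members with a window, 6 held the element, against 12 of 7281 promoters of tested genes (0.165%). ER chaperones are known to be raised through this element, so its share in a list of them is no independent support.

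Genes that make and attach glycans were in part lower. Of 28 tested hexosamine and glycan synthesis genes, 10 fell and 1 rose, against 8.26% and 5.05% of all genes tested. The other 17 were not called, and the list median was -0.31. UGDH and UGP2, which make UDP-glucuronate and UDP-glucose, differed by -1.44 and -1.16, and the oligosaccharyltransferase subunits RPN1, STT3B, STT3A and DDOST by -1.12, -0.89, -0.79 and -0.67. All of these fell. GFPT1, which uses glutamine to aminate fructose 6-phosphate, had 194, 206 and 199 in the glucose-only libraries, against 293, 289 and 319 in the glutamine-only libraries, a difference of -0.59 ± 0.12 (SE), adjusted p = 0.00124. OGA, which removes O-linked N-acetylglucosamine from proteins, rose (0.48 ± 0.12 (SE), adjusted p = 0.00578) but was not called with equal totals, while OGT, which adds it, was not called (0.26 (95% interval 0.01 to 0.50)).

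ATF4 targets, which respond to a shortage of amino acids, were mostly not called. Of 24 tested, 7 fell (29.2%, against 8.26% of all genes tested) and 17 were not called, with a median of -0.23. The number called was 4 without glucose-only replicate A, 4 without glutamine-only replicate B, 3 with a constant prior variance and 4 by DESeq2. GDF15, a stress-induced cytokine, had 22.9, 23.1 and 24.7 in the glucose-only libraries, against 50.5, 42.4 and 67.1 in the glutamine-only libraries, a difference of -1.12 ± 0.26 (SE), adjusted p = 0.00409, and SLC3A2, the heavy chain of the cystine and leucine exchangers, fell by 0.92 on the log2 scale. TRIB3, a pseudokinase and sensitive ATF4 target, had 142, 152 and 143 in the glucose-only libraries, against 147, 144 and 131 in the glutamine-only libraries, with overlapping groups and a difference of 0.05 (95% interval -0.24 to 0.35). TRIB3 stood at 213 ± 17.8 in deficient medium and 13.5 ± 3.87 in full medium (SD, n = 3 each). For the others the intervals also span 0, at -0.15 (95% interval -0.37 to 0.08) for ATF4, -0.20 (95% interval -0.79 to 0.40) for DDIT3, which encodes the factor CHOP, and 0.52 (95% interval -0.22 to 1.27) for CHAC1, which degrades glutathione. These intervals bound each difference and do not show that the media act alike. ASNS, which makes asparagine with nitrogen from glutamine, was not tested, with 4.82, 10.5 and 12.9 in the glucose-only libraries, against 5.41, 5.78 and 4.66 in the glutamine-only libraries. As for LDHA above, such low counts do not show that the gene was little used, and no direction is read from them.

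Of 15 tested amino acid transporters, 5 fell, among them SLC6A6 (-1.27), the taurine transporter, and SLC38A2 (-0.46), which carries small neutral amino acids including glutamine, and 3 were called with a constant prior variance. SLC1A5, a main glutamine importer, was not called (-0.13 (95% interval -0.40 to 0.14)). Among 19 tested cytosolic tRNA synthetases, 2 fell, among them WARS1 (-0.85), and 1 was called without glucose-only replicate C. In glutamine, glutamate and proline metabolism 3 of 17 tested genes fell and 1 rose (23.5% called, beside 13.3% of all genes tested). GLUL, glutamine synthetase, had 38.5, 41.9 and 39.98 in the glucose-only libraries, against 71.3, 61.6 and 67.1 in the glutamine-only libraries, a difference of -0.72 ± 0.14 (SE), adjusted p = 6.80e-04, OAT and GCLC fell, and PFAS, a glutamine-using enzyme of purine synthesis, rose (0.77). The number called was 2 without glucose-only replicate B, glutamine-only replicate A or glutamine-only replicate B, and 1 by DESeq2 or with a constant prior variance. Leaving out the named library ended the calls of PFAS (glucose-only A or C, glutamine-only A or B), GCLC (glucose-only B, glutamine-only A or C) and OAT (glucose-only B, glutamine-only B). In serine and one-carbon metabolism, 1 of 13 tested genes was called, MTHFD1, which rose (0.76), and PSAT1 stood at 0.12 (95% interval -0.18 to 0.41).

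Most histone genes and part of the DNA replication genes were higher in glucose-only cells. Of 31 tested replication-dependent histone genes, which are expressed in S phase, 26 rose, against 5.05% of all genes tested. The other 5 were not called, and the list median was 0.92. H2AC13 (ENSG00000196747, chr6:27808173-27808667) had 63.8, 39.8 and 41.2 in the glucose-only libraries, against 17.1, 11.6 and 12.1 in the glutamine-only libraries. The groups did not overlap, and the difference was 1.74 ± 0.29 (SE), adjusted p = 8.20e-05. H3C2 differed by 0.92 and H2BC5 by 0.77, and both rose. Histone genes of a class are near-identical copies, so the counts of single members are uncertain where reads fit several of them, and their messages lack poly(A) tails. Of 36 tested DNA replication genes, 14 rose (38.9%, against the same 5.05%) and 22 were not called, with a median of 0.70. MCM7, a subunit of the replicative helicase, had 160.2, 165 and 172 in the glucose-only libraries, against 98.3, 109 and 101 in the glutamine-only libraries, a difference of 0.68 ± 0.11 (SE), adjusted p = 7.19e-05. MCM2, MCM3 and MCM4 of the same helicase rose by 1.14, 0.93 and 1.02, and POLA1, the polymerase that primes replication, by 1.07. Without glucose-only replicate C, 9 genes of this list were called. Leaving out the named library ended the calls of MCM2 (glucose-only A or C, glutamine-only C) and POLA1 (glucose-only C).

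Of 37 tested mitosis genes, 9 rose (24.3%, against 5.05% of all genes tested) and 28 were not called, with a median of 0.35. There were 3 calls with libraries scaled to equal totals and 2 by DESeq2. MKI67, the proliferation marker Ki-67, had 249, 247 and 221 in the glucose-only libraries, against 125, 122 and 138 in the glutamine-only libraries, so the lowest glucose-only value exceeded the highest glutamine-only value, and the difference was 0.89 ± 0.12 (SE), adjusted p = 3.07e-06. CCNA2, the cyclin of S and G2 phases, rose by 1.18 and CDK1, its partner, by 0.64 (not called with equal totals or by DESeq2), while CCNB1, the cyclin of mitosis, was at 0.35 (95% interval -0.01 to 0.71). Among 21 tested growth arrest genes, 4 fell, namely GADD45G (-1.47), CCNG2 (-1.45), SESN3 (-1.15) and GADD45B (-1.08). The call of GADD45G was lost without any 1 of 5 libraries, by edgeR and by DESeq2. CDKN1A, which encodes the inhibitor p21, was not called (-0.25 (95% interval -0.51 to 0.01)).

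Of 25 tested pentose phosphate and nucleotide synthesis genes, 4 fell and 2 rose (24% called, beside 13.3% of all genes tested). Those that fell include the pentose phosphate enzymes PGD (-1.05), TKT (-1.03) and TALDO1 (-0.45). The 2 that rose serve nucleotide synthesis, RRM2 (0.88), a ribonucleotide reductase subunit, and DHODH, the mitochondrial step of pyrimidine synthesis. DHODH had 13.2, 14.7 and 10.6 in the glucose-only libraries, against 2.71, 9.63 and 2.80 in the glutamine-only libraries. It reached 10 only in the glucose-only libraries, so it passed the filter through the medium in which it was high, and its call is no support for a difference. By DESeq2, 3 genes of this list were called. Leaving out the named library ended the calls of DHODH (glucose-only A or B, glutamine-only A or C) and TALDO1 (glucose-only C, glutamine-only C). In the tricarboxylic acid cycle and anaplerosis, 4 of 24 tested genes fell and 20 were not called. IDH1, the cytosolic NADP-dependent isocitrate dehydrogenase, had 31.3, 23.1 and 34.1 in the glucose-only libraries, against 99.2, 64.5 and 97.9 in the glutamine-only libraries, a difference of -1.52 ± 0.23 (SE), adjusted p = 2.03e-05, and PC, pyruvate carboxylase, fell (-1.05), as did MDH2 and CS, with the call of CS lost without glucose-only replicate A or B or glutamine-only replicate A or B. Nuclear respiratory chain genes gave 6 lower and 1 higher of 33 tested (21.2% called, beside 13.3% of all genes tested). Their 7 calls became 2 without glucose-only replicate A, 4 without glucose-only replicate B, 1 without glutamine-only replicate B, 3 without glutamine-only replicate C, 2 with a constant prior variance, 3 with quantile normalization and 1 by DESeq2. Of the 13 mitochondrially encoded mRNAs, 0 were called by limma or by edgeR, 2 by DESeq2 and 6 at an unadjusted p under 0.05. Their differences ran from -0.35 (MT-CO1) to 0.14 (MT-ATP8), and 6 were called with equal totals and 7 with quantile normalization.

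Part of the oxidative and heat stress genes were lower in glucose-only cells. Of 24 tested NRF2 targets, 13 fell, against 8.26% of all genes tested, and 11 were not called. With a constant prior variance, 7 were called. HMOX1, heme oxygenase, had 0, 1.05 and 7.05 in the glucose-only libraries, against 37.9, 33.7 and 30.8 in the glutamine-only libraries, a difference of -3.78 ± 0.44 (SE), adjusted p = 3.54e-07, and the groups did not overlap. TXNRD1, thioredoxin reductase, fell by 1.06 on the log2 scale and the ferritin chains FTH1 and FTL by 0.91 and 0.80, while NFE2L2, which encodes NRF2, was at -0.02 (95% interval -0.27 to 0.23). PGD, TALDO1, ME1, GCLC and SLC7A11 of this list are also counted in other lists, and ME1 was not called without glucose-only replicate C. Of 19 tested heat shock and cytosolic chaperone genes, 8 fell, against the same 8.26%, and 11 were not called. HSPA6, a strictly inducible HSP70, had 3 reads in the 3 glucose-only libraries and 293 in the 3 glutamine-only libraries, a depth-adjusted ratio of 0.0125 (95% interval 0.00257 to 0.0369, counting error only). DNAJB1, an HSP40 cochaperone, differed by -1.64 and HSPA8, the constitutive HSP70, by -0.75. HSPA6 is closely related to other HSP70 genes, so reads shared with them are uncertain. Of 34 tested lysosome and autophagy genes, 8 fell (23.5%, against 8.26% of all genes tested). Among them were WIPI1 (-1.93), which acts in autophagosome formation, the sterol carrier NPC2 (-1.25) and the protease CTSD (-0.82). The folliculin gene FLCN (-0.76) also fell, but was not called without glucose-only replicate A.

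EGFR (ENSG00000146648, chr7:55019017-55211628), the receptor for epidermal growth factor, had 387, 373 and 354 in the glucose-only libraries, against 189, 204 and 228 in the glutamine-only libraries, each glucose-only value above each glutamine-only value, and a difference of 0.84 ± 0.09 (SE), adjusted p = 1.59e-07. Mesenchymal and matrix genes changed in both directions, with 8 of 39 tested higher and 9 lower. The protease genes MMP1 (0.76) and PLAU (0.79), the receptor PLAUR (0.77) and the matrix protein THBS1 (0.74) rose. MMP1 had 143, 156 and 169 in the glucose-only libraries, against 92.9, 99.2 and 83.0 in the glutamine-only libraries, a difference of 0.76 ± 0.12 (SE), adjusted p = 3.15e-05. SNAI1, a transcription factor of the epithelial to mesenchymal transition, fell with 1.204, 2.10 and 1.18 in the glucose-only libraries, against 11.7, 27.9 and 30.8 in the glutamine-only libraries, a difference of -3.21 ± 0.46 (SE), adjusted p = 8.03e-06, and VIM (-0.36), FN1 (-0.60) and S100A4 (-0.90) fell, with VIM not called under quantile normalization or a constant prior variance. Of 22 tested YAP and TEAD targets, 5 rose, including AXL (0.62), a receptor kinase, and F3 (0.57), tissue factor, and 2 fell, GADD45B and CCN2 (-0.52). The 7 calls became 4 with equal totals, where F3 was not called, and 3 by DESeq2, where neither F3 nor CCN2 was. EHF, an epithelial ETS factor, rose (0.82 ± 0.11 (SE), adjusted p = 5.07e-06), as did the protocadherin-like gene FAT1 (0.71), the histone methyltransferase gene NSD2 (0.68) and the cytolinker gene PLEC (0.67).

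Immediate early genes, which respond within minutes to growth signals and stress, gave 6 lower and 1 higher of 25 tested, with 11 called under quantile normalization. FOS had 7.23, 10.5 and 2.35 in the glucose-only libraries, against 39.7, 33.7 and 33.6 in the glutamine-only libraries, a difference of -2.42 ± 0.27 (SE), adjusted p = 1.59e-07, and EGR1 had 44.6, 26.2 and 27.0 in the glucose-only libraries, against 107, 85.7 and 106 in the glutamine-only libraries, a difference of -1.62 ± 0.15 (SE), adjusted p = 7.41e-09. FOSB, JUND and DUSP5 fell. NR4A1, a nuclear receptor, had 2 reads in glucose-only and 19 in glutamine-only libraries, a depth-adjusted ratio of 0.129 (95% interval 0.0145 to 0.533). PHLDA1 rose (0.29), a call lost without any 1 of 5 of the 6 libraries and by edgeR, and MYC was at 0.24 (95% interval -0.00 to 0.49). Of 20 tested NF-kB targets and cytokines, CXCL1 (1.00) and BIRC3 (0.75) rose. Of 16 interferon-stimulated genes IFITM3 (-0.94) and STAT2 (-0.56) fell. In each of these lists 1 gene was called without glutamine-only replicate C. Among 8 polyamine genes, ODC1 (0.67), the rate-limiting decarboxylase, and AZIN1 (0.39), which protects it, rose and AMD1 fell (-0.65), with 5 genes called without glucose-only replicate C and AZIN1 not called without glutamine-only replicate C. Of 7 metallothionein and zinc genes MT1E fell (-0.36). It belongs to a family of near-identical genes, and its call was lost without glucose-only replicate A or B or glutamine-only replicate B or C.

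In 9 of the lists the share of called genes lay between 5.88% and 19.05%, beside 13.3% of all genes tested, and nothing particular to these lists is read from it. They were fatty acid oxidation (5.88%), serine synthesis and one-carbon metabolism (7.69%), cytosolic tRNA synthetases (10.5%), NF-kB targets with cytokines (10.0%), interferon-stimulated genes (12.5%), metallothioneins and zinc (14.3%), ribosome biogenesis (15.6%), the tricarboxylic acid cycle (16.7%) and growth arrest (19.05%).

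Most cytosolic ribosomal protein genes were lower in glucose-only cells, by small amounts. Of 66 tested, 49 fell, against 8.26% of all genes tested, and 17 were not called, with a median of -0.46 against -0.00 for all genes. The share called depends on level. Among genes with a mean of at least 100 over the 6 libraries, 36.1% were called in either direction. With a constant prior variance 31 were called. RPL12 had 299.9, 302 and 313 in the glucose-only libraries, against 495, 546 and 542 in the glutamine-only libraries, a difference of -0.79 ± 0.10 (SE), adjusted p = 1.14e-06. Most of these genes have many processed pseudogenes with near-identical sequence, and the split of reads among copies is uncertain. Of 83 tested processed pseudogenes, 15 fell and 1 rose, with a median of -0.45. Of 32 tested ribosome biogenesis genes, which act in the nucleolus, 4 rose and 1 fell, with a median of 0.20. TCOF1 (0.60), a nucleolar factor for rRNA synthesis, rose, and NPM1 (-0.31), nucleophosmin, fell. TCOF1 was not called with equal totals or by DESeq2, and NPM1 not without glucose-only replicate A or C or glutamine-only replicate B or C. The 5 calls became 1 with equal totals or a constant prior variance, 0 by DESeq2, and 2 or 3 without glucose-only replicate A or B or without glutamine-only replicate A, B or C.

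Differences of small non-coding RNAs were mostly positive, in 101 of 113 small nucleolar RNAs and 47 of 51 miRNA genes. The counts below stand beside 5.05% higher and 8.26% lower of all genes tested. Of 113 tested small nucleolar RNAs, which guide chemical modification of ribosomal RNA, 39 rose and the other 74 were not called, with a median of 0.35. The number called was 14 without glucose-only replicate C, 10 without glutamine-only replicate C, 4 with a constant prior variance and 19 by DESeq2. Of 19 mitochondrial tRNAs 13 rose, with a median of 0.78, and 8 were called without either glucose-only replicate C or glutamine-only replicate C. MT-TR, the mitochondrial arginine tRNA, had 8357, 8549 and 10046 in the glucose-only libraries, against 4735, 3301 and 2869.8 in the glutamine-only libraries, a difference of 1.33 ± 0.19 (SE), adjusted p = 1.19e-05. Of 62 small nuclear RNAs 9 rose (median 0.28), of 10 small Cajal body RNAs 4 rose, and of 3 vault RNAs 2 rose. Small nuclear RNA calls numbered 5 without glucose-only replicate A. Of 276 long non-coding RNAs, 7 rose (2.54%) and 14 fell (5.07%), shares below those of all genes tested. These 21 calls became 13 without glucose-only replicate B, 11 without glutamine-only replicate B and 11 without glutamine-only replicate C.

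The make-up of the libraries moved with the medium. Mitochondrial tRNA took 14.8% ± 0.810 of reads in glucose-only and 8.97% ± 1.42 in glutamine-only libraries (SD, n = 3 each), and nuclear protein-coding genes 41.3% ± 2.45 in glucose-only and 47.2% ± 3.04 in glutamine-only libraries. Mitochondrial rRNA took 12.2% ± 1.09 in glucose-only and 13.9% ± 0.325 in glutamine-only libraries, mitochondrial mRNA 3.17% ± 0.0928 in glucose-only and 3.92% ± 0.357 in glutamine-only libraries, and long non-coding RNA 7.59% ± 0.167 in glucose-only and 6.61% ± 0.472 in glutamine-only libraries. For these 5 classes the media did not overlap, and the two-sided exact permutation p was 0.1, the smallest that 3 against 3 allows. All other genes together took 21.03% ± 0.644 in glucose-only and 19.3% ± 1.19 in glutamine-only libraries, with overlap (exact p = 0.2). The part that library composition has in the higher values of short RNAs was not tested.

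**Figure D3:**
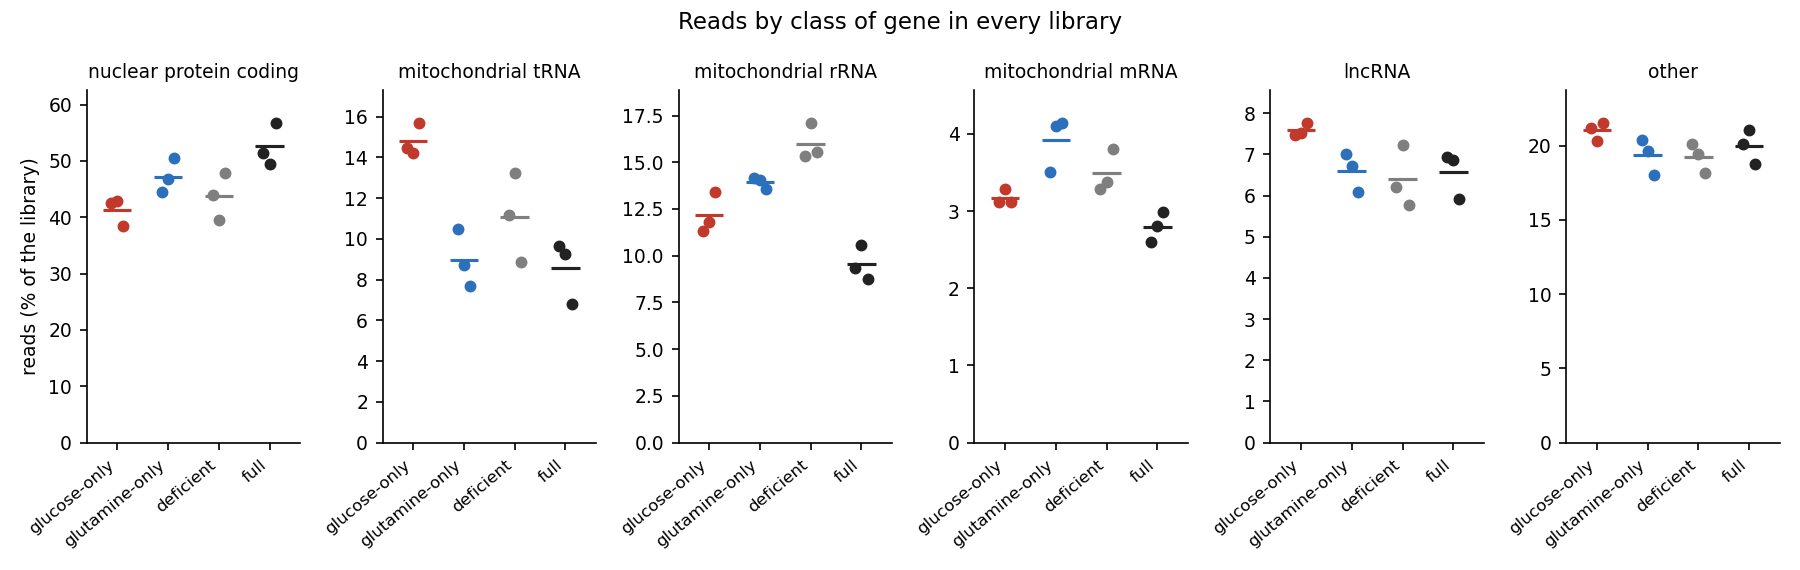
Share of reads, in percent, that fell to 6 classes of genes in each library, with media from left to right glucose-only, glutamine-only, deficient and full. Each point is 1 library (n = 3 each medium), and mitochondrial tRNA lies at 14.2 to 15.7% in glucose-only and 7.70 to 10.5% in glutamine-only libraries.

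MicroRNAs pair with target messages through their seed, bases 2 to 8. Of 51 tested miRNA genes, 10 rose (19.6%, against 5.05% of all genes tested) and the other 41 were not called, with a median of 0.41. A mature sequence was in the RefSeq table for 46. Calls numbered 4 without glucose-only replicate A, 3 without glucose-only replicate C, 5 without glutamine-only replicate B, 2 without glutamine-only replicate C, 6 without full replicate A and 0 with a constant prior variance. The counts are per gene and can hold precursor or host transcript reads, so they are not counts of a mature arm. The sequences shown are those of called members of 3 seed groups, with the seed in capitals.
miR-15a-5p: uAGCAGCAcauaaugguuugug
miR-424-5p: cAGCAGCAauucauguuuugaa
miR-30a-5p: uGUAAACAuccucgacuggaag
miR-30e-5p: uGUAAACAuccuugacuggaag
let-7a-5p: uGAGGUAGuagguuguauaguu
miR-98-5p: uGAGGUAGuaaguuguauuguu

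The AGCAGCA group held MIR15A, MIR15B, MIR16-1, MIR16-2 and MIR424, whose differences ran from 0.19 to 0.86, and 2 of the 5 rose. MIR424 had 125, 143 and 153 in the glucose-only libraries, against 107, 75.1 and 55.0 in the glutamine-only libraries, a difference of 0.86 ± 0.22 (SE), adjusted p = 0.00699. Both tested members of the GUAAACA group, MIR30A (0.69) and MIR30E (1.27), rose. In the GAGGUAG group of let-7 type genes, MIRLET7A2 (0.60) and MIR98 (0.56) rose, and MIRLET7F2 and MIRLET7G were not called. Leaving out the named library ended the calls of MIR15A (glucose-only C, glutamine-only C), MIR424 (glutamine-only C), MIR30A (glucose-only A or C, glutamine-only B or C), MIR30E (glucose-only A or C, glutamine-only B or C, full A or B), MIRLET7A2 (glutamine-only C) and MIR98 (glucose-only A, B or C, glutamine-only B or C, full A). MIR106B, which lies within MCM7, rose by 0.87, beside 0.68 for MCM7.

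The deficient and full media placed these gene groups differently. A called gene was said to sort the 4 media by glucose where its full-medium level was nearer the glucose-only level and its deficient level nearer the glutamine-only level, and by glutamine in the reverse case. The libraries that set the 4 levels include those of the comparison, so these counts are descriptions. Nearness alone sets the label. Where full medium lay above both the glucose-only and glutamine-only levels and deficient medium below both, the direction alone sets the label. A gene higher in glucose-only cells then sorts by glucose, and a lower gene by glutamine. The label then does not show that the other nutrient made no difference. MKI67 is a higher gene of this kind, at 533 in full, 239 in glucose-only, 129 in glutamine-only and 82.8 in deficient medium. PDK1 is a lower gene of this kind, at 73.2 in full, 60.0 in glutamine-only, 19.5 in glucose-only and 13.9 in deficient medium. Of all genes tested 27.3% sorted by glucose and 26.7% by glutamine. Among the 468 higher genes 183 (39.1%) sorted by glucose and 120 (25.6%) by glutamine, and among the 766 lower genes 277 (36.2%) sorted by glucose and 196 (25.6%) by glutamine. All 26 called histone genes, all 9 called mitosis genes and 12 of 14 called replication genes sorted by glucose, as did 19 of 25 called ER genes, 45 of 49 called ribosomal protein genes, 9 of 13 called NRF2 targets and 7 of 8 called lysosome genes. The called sterol genes sorted by glutamine in 13 of 17 cases, glycolysis genes in 12 of 17 and HIF1A targets in 10 of 17.

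The median level of the 26 called histone genes, relative to each gene's mean over the 4 media on the log2 scale, was 0.22 in glucose-only, -0.64 in glutamine-only, -1.26 in deficient and 1.74 in full medium. The same level of the 25 called ER genes was -0.74 in glucose-only, 0.94 in glutamine-only, 0.43 in deficient and -0.61 in full medium. The 17 called sterol genes stood at -1.12 in glucose-only, 0.86 in glutamine-only, -0.70 in deficient and 0.75 in full medium. The 17 called glycolysis genes stood at -0.67 in glucose-only, 0.28 in glutamine-only, -0.59 in deficient and 0.84 in full medium. The 17 called HIF1A targets stood at -0.92 in glucose-only, 0.57 in glutamine-only, -0.57 in deficient and 0.75 in full medium. ER genes were thus low in both media with glucose, and sterol genes were low in both media without glutamine. Histone genes were highest in full and lowest in deficient medium, with both other media between. By median, glycolysis genes and HIF1A targets were also highest in full medium, where both nutrients were present.

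**Figure D4:**
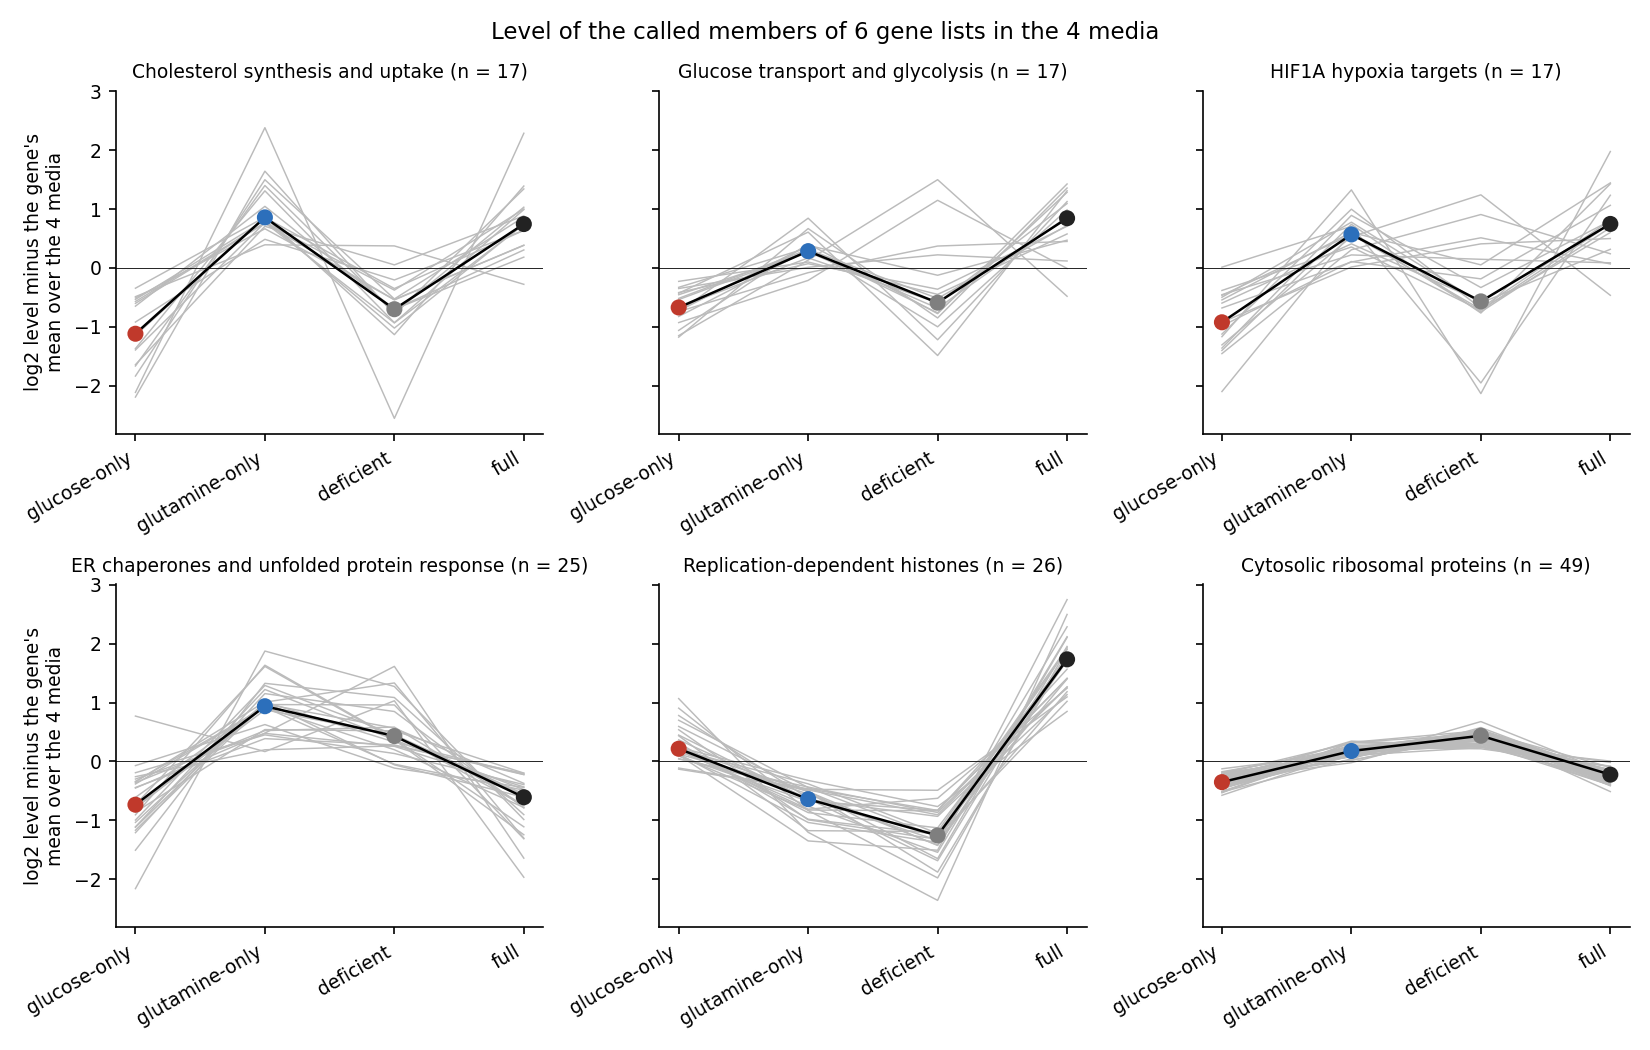
Median log2 level of the called members of 6 gene lists in each medium, relative to each gene's mean over the 4 media, with media from left to right glucose-only, glutamine-only, deficient and full. Sterol genes lie at -1.12 in glucose-only and 0.86 in glutamine-only medium, ER genes at -0.74 in glucose-only and 0.94 in glutamine-only medium.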

How the data were processed

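Total RNA of MDA-MB-231 cells was depleted of ribosomal RNA and made into stranded libraries, per the labels' protocols, and all 12 samples carry 1 batch label. Per the submitters' processing notes the tools were FastQC, HISAT2, Subread and DESeq2 with build GRCh38.p14, and the annotation release and strand setting are not given in the sources used here. The authors deposited a signal per gene, read counts divided by a size factor. Every value came out as a whole number of reads within 0.01, at 0.661 to 1.30 per read, and 62666 of 63187 gene identifiers matched the reference names. Positions were matched by symbol for 9059 tested genes in RefSeq on GRCh38.p14.

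Differences were tested with limma 3.58.1 (R 4.3.3) with a trended prior on log2(value + 1), 1 mean per medium, all 12 libraries and Benjamini-Hochberg adjustment over 9270 genes. A fold on this scale understates changes of low genes. On the recovered reads edgeR 4.0.16 and DESeq2 1.42.0 served as alternatives. The fitting code was tested on simulated data. Replicate letters were not used to pair libraries. Intervals for ratios of reads are exact binomial intervals on the share of pooled reads, converted to depth-adjusted ratios, and cover counting error only.

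The members, lists and markers were chosen with earlier results of these data known. Named genes were the 12 highest and 12 lowest called genes with a mean of at least 100 and groups that did not overlap, up to 5 members of each list with the largest difference and members that moved against it, a list of anchor genes, and members of short lists. Those named beyond this rule, such as examples from long lists, single RNAs of small classes and promoter matches, were chosen after their values were seen, and some genes that meet the rule are not reported here. Alternatives changed the pseudocount (0.5, 8), the filter, scaling, prior, threshold, libraries and replicate block.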

Additional observations from a re-analysis of the deposited data

How the results depend on the processing

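The count of 1234 called genes became 486 with a mean of at least 100, 817 with a constant prior variance, 604 by DESeq2 and 656 at an adjusted p under 0.01, and ran from 849 to 1327 when 1 library was left out. Higher genes (468) became 174 with a mean of at least 100, 245 with equal totals, 262 with a constant prior, 179 by DESeq2 and 181 at 0.01 (283 to 515 with 1 library left out). Lower genes (766) became 312, 425 and 475 with a mean of at least 100, by DESeq2 and at 0.01 (566 to 812 with 1 library left out). Genes with at least a 2-fold difference (347) became 129 with a pseudocount of 8 and 38 with a mean of at least 100 (292 to 363 with 1 library left out). Fewer genes are tested under the higher mean. Called members of the gene lists (303) became 166 with a mean of at least 100 (250 to 312 with 1 library left out), and called named genes (138) became 64 (127 to 140). With the other called genes of the text, 180 called genes were followed. Of these, 135 were past the threshold under every alternative run, 45 lost it under at least 1, and 0 changed direction. The 12 highest and 12 lowest genes kept direction and call in all 312 and 311 values. These genes were picked from the same data for large differences without overlap, so this stability was largely set by the choice.

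Among results not called, TRIB3 turned to -0.046 with equal totals, VEGFA to 0.029 and NFE2L2 to 0.024 with quantile normalization. With 1 library left out, ARRDC3 ran from -0.23 to 0.22 and NFE2L2 from -0.073 to 0.072. With a mean of at least 100, the pentose phosphate and nucleotide list had 1 call and a median of -0.44, and the polyamine list 1 call and a median of 0.08, with fewer members tested. Equal totals shifted the median of all genes by -0.10. The replicate block gave 1276 calls (493 higher, 783 lower), and same-letter libraries did not deviate together (correlations of -0.0153, 0.00684 and -0.00618), so the letters were not taken to pair libraries. The 6 libraries alone gave 1283 calls and, in a setting added after seeing the data, 1265 with the replicate block. With at most 1473587 reads a library, genes near 10 counts cannot show small differences.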
